A study of Mus musculus with 4 samples.

Results

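The genes described here encode the Wnt ligands, their Frizzled and LRP receptors, the secreted proteins that modulate them, and transcriptional targets that report the pathway, in P19 cells treated with retinoic acid with or without overexpression of Ctcfl. P19 is a mouse embryonal carcinoma line, a tumour-derived relative of the early embryo that differentiates when exposed to retinoic acid. Members were all genes whose symbol in the platform's probe annotation was Wnt, Fzd, Sfrp, Dkk or Rspo followed by a digit, together with Axin2, Lef1, Tcf7, Lgr5, Lrp5 and Lrp6. The rule used no measured value, but it was chosen with earlier results of these data known. It gave 51 probe sets of 47 genes, out of 22180 genes with a value on the array: 19 Wnt ligands, 10 Frizzled receptors, the co-receptors Lrp5 and Lrp6, the R-spondins Rspo1 to Rspo4 with their receptor Lgr5, 4 Sfrp and 4 Dkk genes, Axin2, Lef1, and the transcript Fzd10os, which the rule takes in by name. No probe set was annotated to Tcf7, which was not analysed here.

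Wnt proteins are lipid-modified, secreted signals. In the canonical branch a Wnt binds a Frizzled receptor and an LRP co-receptor, the complex that destroys beta-catenin is disabled, and beta-catenin enters the nucleus to act with TCF/LEF factors on targets such as Axin2 and Lef1. Dkk1 blocks the LRP co-receptor, Sfrp proteins bind Wnts outside the cell, and R-spondins acting through Lgr receptors keep Frizzled on the surface. In the early embryo Wnt3 is needed to form the primitive streak, and later Wnt signals pattern the posterior body and the neural tube.

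Total RNA from 4 conditions was measured on 1 array each. Wild-type P19 cells were either kept undifferentiated with vehicle (ethanol) or treated with 10 µM retinoic acid for 4 days. The same pair of conditions was measured in a Ctcfl line, P19 cells carrying the integrated vectors pBI-EGFP-FLAG-mCtcfl and pTA-N, in which mouse Ctcfl, a testis-enriched paralogue of the insulator protein CTCF, is under Tet-Off control. Doxycycline at 2 µg/ml holds the transgene silent in that line and was withdrawn 2 days before RNA extraction. The labels conflict on the wild-type cultures: the sample description lists the same 2 µg/ml doxycycline, while the growth protocol gives ordinary medium. Vectors, clonal origin, doxycycline history and Ctcfl itself therefore cannot be told apart in any comparison of the lines, and the Ctcfl line is 1 clone. Ctcfl signal, in order wild type undifferentiated, wild type with retinoic acid, Ctcfl line undifferentiated and Ctcfl line with retinoic acid, was 7.86, 7.13, 10.41 and 9.56, higher on both arrays of the Ctcfl line.

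All signals are log2 values deposited by the authors, normalised across arrays by RMA, so a difference of 1 is a 2-fold difference. Probe sets of different genes bind with different strength, and levels are compared only for the same gene between arrays. With no replicates, a difference between 2 arrays has no test. The spread of such differences between probe sets of the same gene was 0.226 to 0.331 (SD over 874 genes), which measures the probes and leaves out variation between cultures. The one test available was a limma fit of all 4 arrays with an additive term each for retinoic acid and for the line. It averages each effect over the other factor and has 1 residual degree of freedom. Its error is the disagreement between the lines in their retinoic acid difference, moderated across genes. Its SE and p-values therefore do not measure variation between cultures, and a gene set apart on 1 array has a larger SE. Genes entered the fit if any array reached log2 6, which left 18310 genes and all 47 members. Olfactory receptor genes, 1088 in number and silent in such cells, served as a guide to background: 95% of them lay below 6.80 to 6.94, depending on the array. By that guide 38 members were above background on all 4 arrays, Lgr5, Wnt10b and Wnt2 on 3, Wnt2b on 1, and Rspo4, Sfrp4, Sfrp5, Wnt16 and Wnt8b on none.

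Embryonal carcinoma markers were present in the undifferentiated cells: 9 of 10 were above background on both undifferentiated arrays, and Zfp42 was below it on all 4 arrays. In limma 7 of the 10 fell with retinoic acid and 0 rose. Of all genes 2.44% fell and 4.21% rose, shares that stand beside every marker count here. The summed linear signal of the 10 went from 18963 to 7260 in wild-type P19 and from 22693 to 7356 in the Ctcfl line. Of 8 primitive and gut endoderm markers 1 rose and 0 fell, and the sum went from 1769 to 5281 in wild-type P19 and from 1832 to 2990 in the Ctcfl line. Gata6, the marker that rose, carried much of that sum, at 7.93 and 11.24 in wild-type P19 and 7.23 and 10.08 in the Ctcfl line. Dab2 and Ttr were 2.55-fold and 2.41-fold higher with retinoic acid in wild-type P19, and 1.32-fold and 1.22-fold higher in the Ctcfl line. Neither passed limma. Sox7 and Foxa2 differed by 0.94 and 0.56 in wild-type P19 and by -0.17 and 0.21 in the Ctcfl line. Gata4, Sox17 and Afp differed by 0.21, 0.15 and 0.23 in wild-type P19 and by -0.15, -0.1 and -0.24 in the Ctcfl line. Such sums add different probe sets and are compared only between arrays. Mesenchyme and smooth muscle markers gave 2 rises and 0 falls among 8, with sums of 2127 and 4637 in wild-type P19 and 1838 and 2786 in the Ctcfl line. Neuron markers gave 1 rise and 4 falls among 9, with sums of 5343 and 3264 in wild-type P19 and 3817 and 2095 in the Ctcfl line. Astrocyte and oligodendrocyte markers gave 0 rises and 1 fall among 6, and trophoblast and epithelium markers 2 rises and 2 falls among 6. No marker on these lists passed limma for the line. The part of such shifts in the Wnt gene differences was not tested. In bulk RNA, fewer cells of a type and less RNA per cell cannot be told apart.

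**Figure D1:**
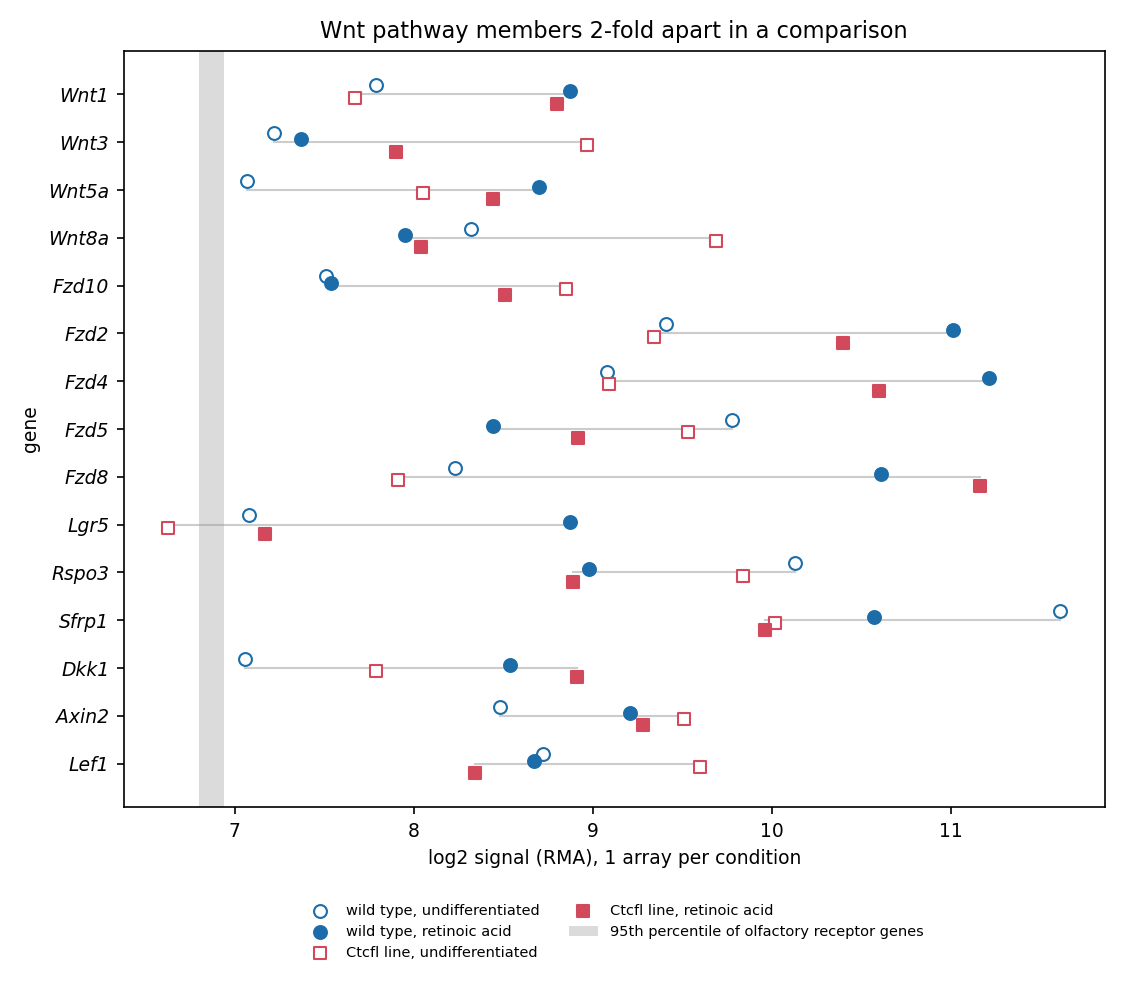
Log2 signal (horizontal axis) of the 15 members at least 2-fold apart in a comparison, with 1 point per array; circles are wild-type P19, squares the Ctcfl line, filled points retinoic acid, and the grey band the 95th percentile of olfactory receptor genes. Fzd4, Fzd2 and Fzd8 have both filled points to the right of both open ones, while Wnt3 and Wnt8a have the open square (undifferentiated Ctcfl line) farthest right.

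With retinoic acid the receptors Fzd8, Fzd4 and Fzd2, the inhibitor Dkk1 and the ligand Wnt1 rose in limma, and the agonist Rspo3 and the receptor Fzd5 fell. The 5 of 47 members that rose are 10.6%, beside 4.21% of all genes tested, and the 2 that fell are 4.26%, beside 2.44% of all genes. Taken array against array, 7 members were at least 2-fold higher with retinoic acid in wild-type P19 (14.9% of members, 2.58% of all genes) and 3 were at least 2-fold lower (6.38% of members, 2.62% of all genes). In the Ctcfl line the counts were 5 higher (10.6% of members, 3.21% of all genes) and 3 lower (6.38% of members, 1.5% of all genes). All 5 genes of the Ctcfl line's higher list were among the 7 of the wild-type list, and the lists of lower genes shared 0 of 3. That 0 depends on the 2-fold cut. In wild-type P19 and the Ctcfl line, Rspo3 differed by -1.14 and -0.96, Fzd5 by -1.34 and -0.62 and Wnt8a by -0.37 and -1.65. Sfrp1 (-1.05 and -0.07) and Lef1 (-0.05 and -1.26) were also below 0 in both. Wnt3 (0.15 and -1.07) was below 0 in the Ctcfl line only. The overlap over all genes was not counted, so neither the 5 shared nor the 0 shared is shown to be particular to the members. The members' median difference was 0.01 in wild-type P19 and -0.07 in the Ctcfl line, against -0.04 and -0.05 for all genes.

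Among the ligands, Wnt1, which patterns the midbrain and dorsal neural tube, was the member that rose. Its signal went from 7.79 to 8.87 in wild-type P19 and from 7.67 to 8.80 in the Ctcfl line, so both treated arrays were above both untreated ones by nearly the same amount. The limma effect was 1.11 ± 0.15 (SE; 2.15-fold, adjusted p = 0.00996). Wnt5a, a ligand of the non-canonical branch, had signals of 7.07 and 8.70 in wild-type P19 and 8.05 and 8.44 in the Ctcfl line. It was 3.08-fold higher with retinoic acid in wild-type P19 but 1.31-fold higher in the Ctcfl line, whose untreated cells already lay 1.97-fold above untreated wild type (limma retinoic acid effect 1.00 ± 0.28, adjusted p = 0.0953).

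Wnt3 and Wnt8a, both canonical ligands of the primitive streak stage, were set apart by a single array. Wnt3 signal was 7.22 and 7.37 in wild-type P19 without and with retinoic acid, and 8.97 and 7.90 in the Ctcfl line. The undifferentiated Ctcfl line thus had the highest Wnt3 value, 3.36-fold above wild type and the 27th highest of 18310 line differences, and the treated line was 2.10-fold below it. Wnt8a signal was 8.32 and 7.95 in wild-type P19 and 9.69 and 8.04 in the Ctcfl line. It was 2.57-fold higher in the untreated Ctcfl line than in untreated wild type, and with retinoic acid it was 3.13-fold lower in that line, against 1.29-fold lower in wild-type P19. With retinoic acid the lines differed by 0.09 for Wnt8a and 0.53 for Wnt3. The other 15 ligands had differences between -0.72 and 0.45 in every comparison. Among them were the canonical ligand Wnt3a, at 7.26, 7.22, 7.25 and 7.33, and Wnt11, a non-canonical ligand of gastrulation, at 7.98, 7.98, 8.11 and 8.17 in the order given above. Wnt7a had the lowest difference of the 15, with 8.03 and 7.31 in wild-type P19 and 7.67 and 7.24 in the Ctcfl line (limma adjusted p = 0.0897 for retinoic acid).

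Of the 10 Frizzled receptors, 3 rose and 1 fell with retinoic acid in limma. Fzd8 had the largest difference of any member. Its signal went from 8.23 to 10.61 in wild-type P19, a 5.20-fold difference and the 59th highest of 18310 genes. In the Ctcfl line it went from 7.91 to 11.16, which is 9.55-fold and the 14th highest. The limma effect was 2.82 ± 0.23 (SE; 7.04-fold, adjusted p = 0.00191). Fzd4, the receptor for norrin as well as for Wnts, went from 9.08 to 11.21 in wild-type P19 and from 9.09 to 10.60 in the Ctcfl line. The untreated arrays were 0.01 apart, and the effect was 1.82 ± 0.19 (3.53-fold, limma adjusted p = 0.00473). Fzd2, a receptor for Wnt5a among others, went from 9.41 to 11.01 and from 9.34 to 10.40 (1.33 ± 0.18, 2.51-fold, limma adjusted p = 0.011). Treated values of Fzd4 and Fzd2 were each 1.52-fold lower in the Ctcfl line than in wild type, while Fzd8 was 1.47-fold higher there.

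Fzd5 was the receptor that fell. Signals were 9.78 and 8.44 in wild-type P19 and 9.53 and 8.92 in the Ctcfl line, a 2.54-fold and a 1.54-fold difference (limma effect -0.98 ± 0.20, 1.97-fold, adjusted p = 0.0418). This call was lost when the filter on low signal was dropped (adjusted p = 0.0541). Fzd10 stood out between the lines and not with retinoic acid: 7.51 and 7.54 in wild-type P19 against 8.85 and 8.51 in the Ctcfl line, so that both Ctcfl arrays lay above both wild-type arrays. It was 2.53-fold higher without and 1.96-fold higher with retinoic acid (limma line effect 1.15 ± 0.16, adjusted p = 0.135). The opposite-strand transcript Fzd10os was at 7.65 and 7.89 in wild-type P19 and 7.35 and 8.09 in the Ctcfl line. The 5 other Frizzled genes, Fzd1, Fzd3, Fzd6, Fzd7 and Fzd9, had differences between -0.76 and 0.70. The median retinoic acid difference of the 10 receptors was 0.38 in wild-type P19, with 8 above 0, and 0.33 in the Ctcfl line, with 7 above 0. Beside these stand 8290 of all 18310 genes above 0 in wild-type P19 and 8109 in the Ctcfl line.

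The co-receptors differed little between arrays. Lrp6 had signals of 11.30 and 11.56 in wild-type P19 and 11.21 and 11.49 in the Ctcfl line, and Lrp5 10.75, 10.53, 10.97 and 10.99 in the same order. Their differences lay between -0.21 and 0.45. Neither passed limma for retinoic acid or for the line.

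Rspo3, which potentiates Wnt signals, fell with retinoic acid. Its signal went from 10.13 to 8.98 in wild-type P19 and from 9.84 to 8.89 in the Ctcfl line, with both treated arrays below both untreated ones (limma effect -1.05 ± 0.15, 2.07-fold, adjusted p = 0.0132). Rspo1, Rspo2 and Rspo4 differed by -0.42 to 0.43, and Rspo4 was at background. Lgr5, an R-spondin receptor and stem cell marker, had signals of 7.08 and 8.87 in wild-type P19 and 6.63 and 7.17 in the Ctcfl line. The treated wild-type array was the high one, and the untreated Ctcfl value was below that array's background guide of 6.91, so differences taken against it depend on background. Lgr5 was 3.46-fold higher with retinoic acid in wild-type P19 and 1.46-fold higher in the Ctcfl line, and the treated lines differed 3.24-fold, the 20th lowest line difference of 18310. Its limma retinoic acid effect was 1.17 ± 0.28 with an adjusted p of 0.0651, between 0.0414 and 0.186 over the alternative settings. The other Lgr5 probe set, at 6.80, 6.75, 6.63 and 6.44, did not show this rise. With both probe sets averaged, the differences with retinoic acid were 0.87 and 0.18, and that between the treated lines -1.004.

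Among the secreted inhibitors, Dkk1, which binds the LRP co-receptors, rose from 7.06 to 8.54 in wild-type P19 and from 7.79 to 8.91 in the Ctcfl line (limma effect 1.30 ± 0.16, 2.46-fold, adjusted p = 0.00843). Both treated arrays were above both untreated ones, and untreated Ctcfl cells were 1.65-fold above untreated wild type. Dkk2, Dkk3 and Dkk4 had differences between -0.14 and 0.44, the highest being Dkk3 between the treated lines. Sfrp1, which binds Wnts outside the cell, was highest in untreated wild-type P19: 11.61 and 10.57 in wild type against 10.02 and 9.96 in the Ctcfl line. Both wild-type arrays were above both Ctcfl arrays. Untreated cells of the Ctcfl line were 3.01-fold lower, the 18th lowest line difference of 18310, and treated cells 1.53-fold lower (limma line effect -1.10 ± 0.24, adjusted p = 0.305). With retinoic acid Sfrp1 was 2.07-fold lower in wild-type P19, while the Ctcfl arrays differed by -0.07 (limma adjusted p = 0.229). All 4 Sfrp genes had a difference below 0 with retinoic acid in both lines, with medians of -0.33 and -0.23. Of all 18310 genes, 10003 were below 0 in wild-type P19 and 10193 in the Ctcfl line. Frzb, a relative of the Sfrp proteins outside the member rule, went the other way. It was 3.73-fold higher with retinoic acid in wild-type P19, from a value below background (6.58), and 1.15-fold higher in the Ctcfl line. The second Sfrp2 probe set, of lower signal, differed by 0.11 in wild-type P19 and -0.18 in the Ctcfl line. Sfrp4 and Sfrp5 were at background, and none of the 4 Sfrp genes passed the test.

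**Figure D2:**
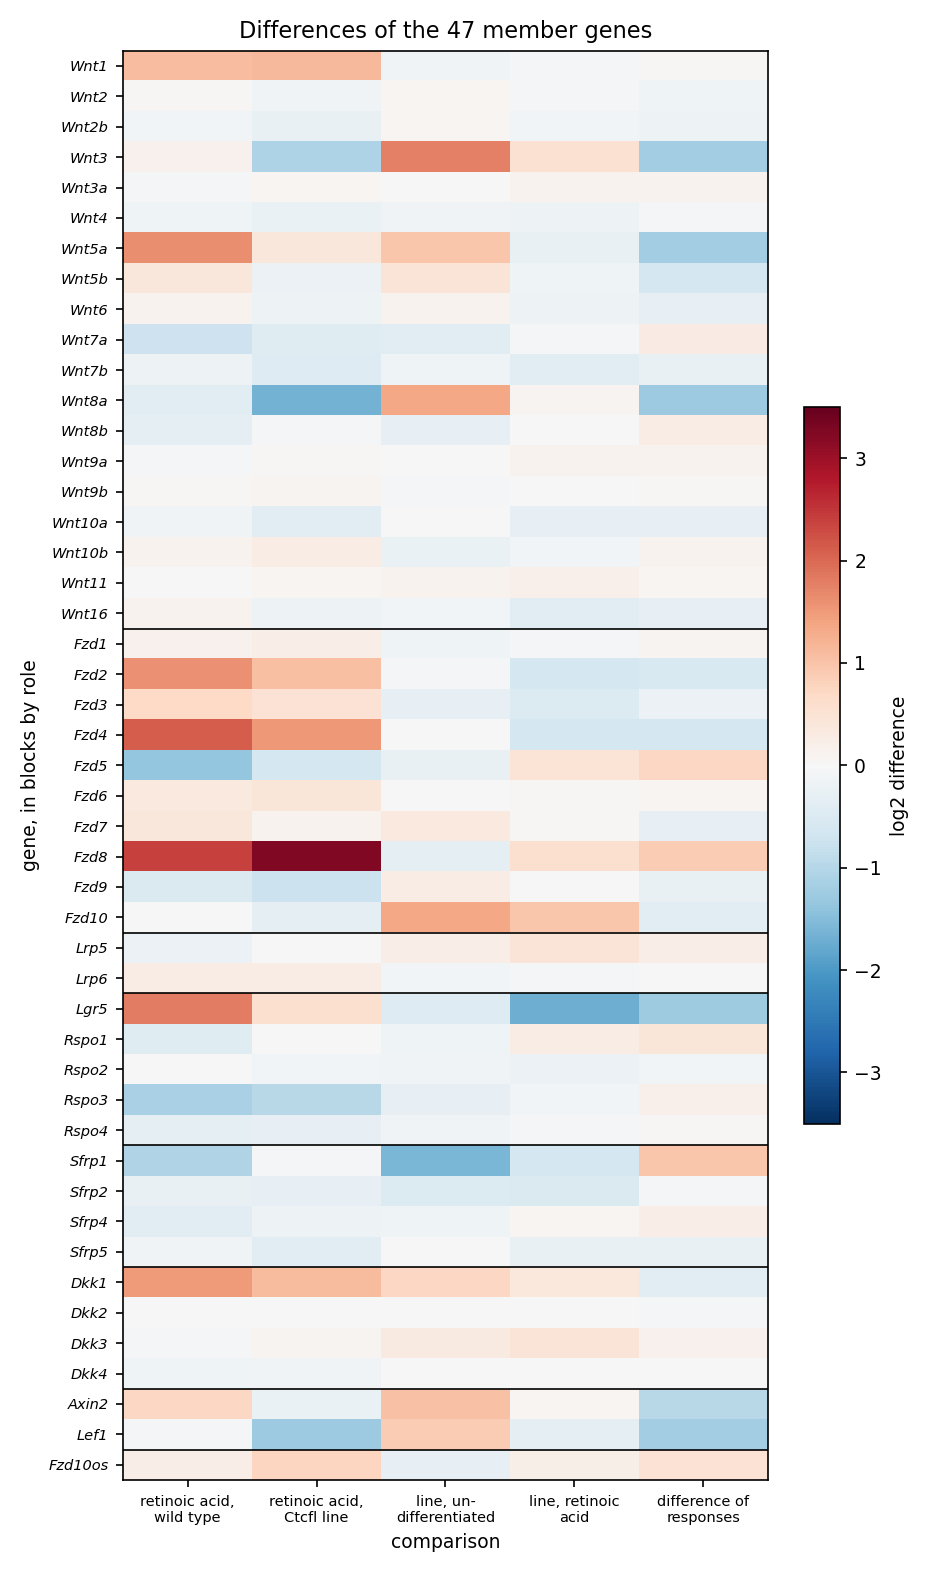
Heat map of the log2 differences of the 47 members (rows, in blocks by role) in the 5 comparisons (columns), red where higher and blue where lower with retinoic acid or in the Ctcfl line. Fzd8 reaches 2.38 and 3.25 with retinoic acid, and in undifferentiated cells Wnt3, Wnt8a, Fzd10 and Axin2 lie above 1 and Sfrp1 at -1.59.

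Between the lines, without retinoic acid, 4 members were at least 2-fold higher in the Ctcfl line (8.51% of members, 0.726% of all genes): Wnt3, Wnt8a, Fzd10 and Axin2. Sfrp1 alone was at least 2-fold lower (2.13% of members, 1.09% of all genes). With retinoic acid 0 members were at least 2-fold higher (0.83% of all genes) and 1, Lgr5, was lower (2.13% of members, 0.399% of all genes). In limma, averaged over both treatments, 0 members rose and 0 fell between the lines. For all genes 0.0273% rose and 0.0164% fell in that fit, and at an unadjusted p under 0.05 it held 9 of 47 members and 1796 of 18310 genes. The undifferentiated Ctcfl array is 1 array of 1 clone, so the higher Wnt3, Wnt8a and Axin2 signals there have no replicate. The 19 ligands as a group had a median line difference of 0.01 in untreated cells, with 10 above and 9 below 0.

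Axin2 and Lef1, which are both pathway components and transcriptional targets of beta-catenin, had their highest value on the same array as Wnt3 and Wnt8a. Axin2 signal was 8.48 and 9.21 in wild-type P19 and 9.51 and 9.28 in the Ctcfl line, so untreated wild-type P19 were the low array and the untreated lines differed 2.05-fold. The second Axin2 probe set, at 7.81, 7.94, 8.11 and 7.76, differed by 0.31 between the untreated lines, and the mean of both probe sets by 0.67. Lef1 signal was 8.72 and 8.67 in wild-type P19 and 9.60 and 8.34 in the Ctcfl line. It was 1.85-fold higher in the Ctcfl line before treatment, and 2.40-fold lower with retinoic acid within that line, whereas the wild-type arrays differed by -0.05. Neither gene passed limma for retinoic acid (adjusted p = 0.571 for Axin2 and 0.222 for Lef1) or for the line (0.54 and 0.782).

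Of a list of 17 other Wnt target genes, 15 had a value, and 7 of these had their highest signal on the undifferentiated array of the Ctcfl line. The share of all genes highest on that array was not counted, so this count does not set the list apart from other genes. In untreated cells 11 of the list were above 0 and 4 below in the line difference, beside 8572 above and 9727 below for all genes. The 4 were Bambi, Rnf43, Msx2 and Nkd2, at -0.22, -0.20, -0.11 and -0.04. The list's median line difference was 0.56, against -0.02 for all genes. At least 2-fold higher in the Ctcfl line were 3 of the 15 (0.726% of all genes), and 0 were lower (1.09% of all genes). Ccnd1, which encodes cyclin D1, had signals of 9.52, 9.42, 11.34 and 9.82, a 3.53-fold difference between the untreated lines. Cdx4, a posterior homeobox gene, was at background (6.35, 6.35 and 6.45) on all arrays but the untreated Ctcfl line, where it reached 7.94. Cdx2, a gene of the same family and list that falls outside the rule for naming genes and is named after its values were seen, was at 7.09, 7.17, 8.37 and 7.11. Cdx1, also of that family and list and outside that rule, did not share this pattern. It was at 6.42, 7.57, 7.09 and 7.70, highest on the treated Ctcfl array. Myc was at 8.84, 9.88, 9.80 and 9.24, with untreated wild type as the low array. In treated cells the median line difference of the list was 0.01, with 0 genes past 2-fold in either direction. With retinoic acid 2 of the list rose in limma and 0 fell (4.21% and 2.44% of all genes). Msx2, a homeobox gene also induced by BMP, rose 3.34-fold (limma adjusted p = 0.00228), and Cdx1 rose 1.84-fold (limma adjusted p = 0.04). None of the list passed limma for the line. Znrf3, Rnf43, Notum and Apcdd1 also stand in other lists used here.

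**Figure D3:**
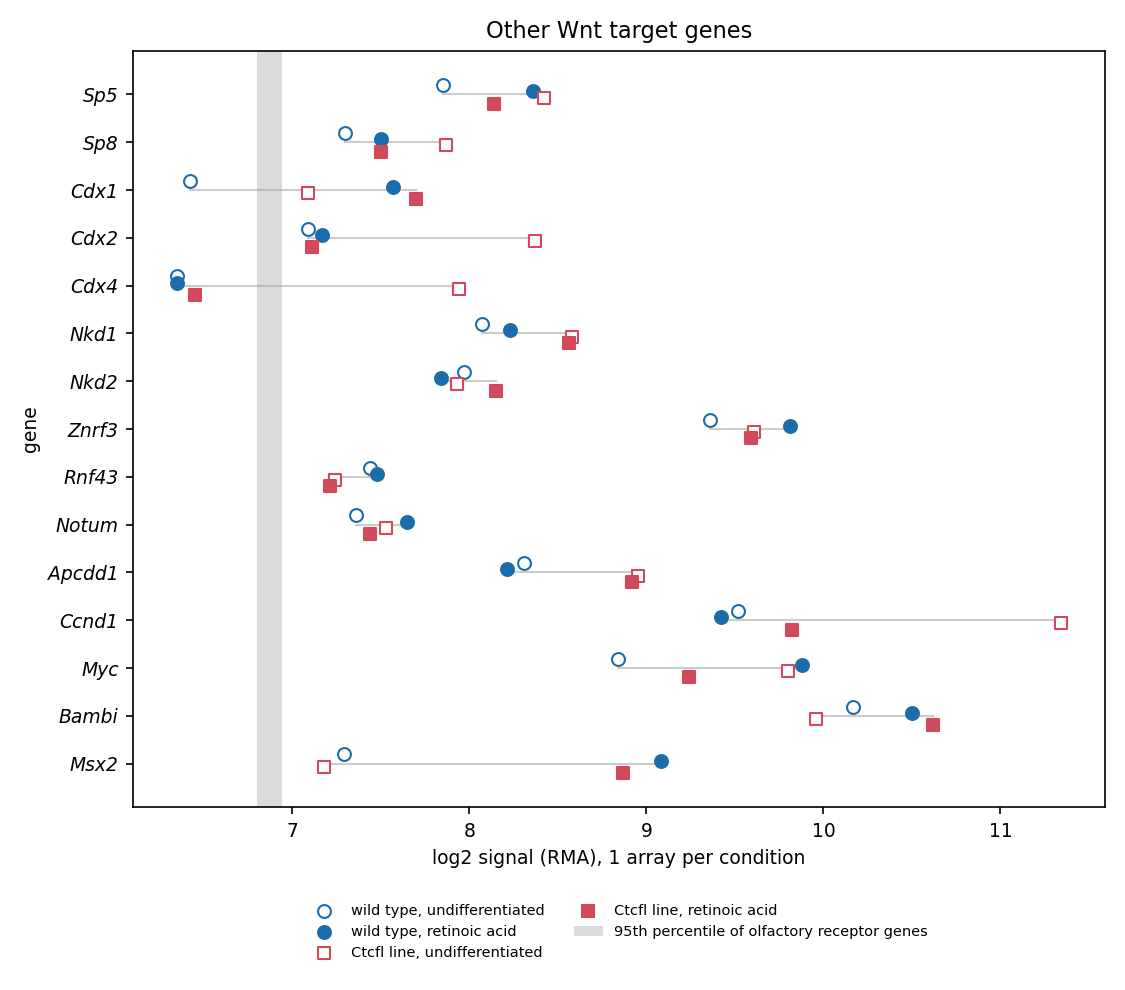
Log2 signal (horizontal axis) of the 15 other Wnt target genes, with 1 point per array; symbols and the grey background band are as in the plot of members by array. Ccnd1, Cdx2 and Cdx4 have the open square (undifferentiated Ctcfl line) at 11.34, 8.37 and 7.94, to the right of their other points. Cdx1 has the filled square (treated Ctcfl line) farthest right, at 7.70.

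Markers of the primitive streak and mesoderm are given beside this because Wnt3 and Wnt8a are expressed there. Of 6 such genes with a value, 1 rose and 1 fell with retinoic acid and 0 passed for the line. Eomes was at 8.36, 7.26, 9.77 and 8.12 and Mixl1 at 7.34, 7.15, 8.14 and 7.24, both highest in the untreated Ctcfl line, as was Mesp1 at 6.26, 6.80, 6.83 and 6.41, below background on all 4 arrays. The other 3 were highest on a treated array: Osr1 at 7.13, 10.00, 7.26 and 7.90, Meox1 at 7.05, 9.73, 6.98 and 8.92, and Tbx6 at 7.48, 7.51, 7.42 and 7.98. The summed linear signal of the list was 1016 and 2464 in wild-type P19 and 1720 and 1491 in the Ctcfl line. Embryonal carcinoma markers summed to 18963 and 22693 on the untreated arrays. Of these 10 markers, 2 were at least 2-fold higher in the untreated Ctcfl line (0.726% of all genes) and 0 lower (1.09% of all genes). The 2 were Tdgf1 (2.93-fold) and L1td1 (2.19-fold), and the median line difference of the 10 was 0.06. The part of either cell state in the Wnt3, Wnt8a, Axin2 and Lef1 values was not tested.

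Promoter sequence is shown for genes that differed between the untreated lines (Wnt3, Fzd10, Axin2, and Lef1 at 0.88, under 2-fold), because Ctcfl shares its DNA-binding domain with CTCF. It is also shown for genes that rose with retinoic acid in both lines (Fzd4, Wnt1, Dkk1). Wnt8a and Sfrp1, which differed between the untreated lines, and Fzd8 and Fzd2, which rose, had no promoter window and are not shown. Each stretch shown is the 150 bases upstream of a RefSeq start on mouse GRCm38.p6, 5′ to 3′ on the strand of the gene, with CpG dinucleotides in capitals. For Axin2 the start used lies inside the annotated gene, which begins at chr11:108917828, so its stretch is not upstream of the whole gene.
Wnt3: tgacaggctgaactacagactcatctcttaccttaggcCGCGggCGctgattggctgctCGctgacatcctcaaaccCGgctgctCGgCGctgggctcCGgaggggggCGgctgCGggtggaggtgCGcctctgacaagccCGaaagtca
Fzd10: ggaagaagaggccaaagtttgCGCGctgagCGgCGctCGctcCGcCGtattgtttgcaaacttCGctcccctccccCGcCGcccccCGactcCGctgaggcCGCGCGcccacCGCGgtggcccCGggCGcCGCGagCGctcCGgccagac
Axin2: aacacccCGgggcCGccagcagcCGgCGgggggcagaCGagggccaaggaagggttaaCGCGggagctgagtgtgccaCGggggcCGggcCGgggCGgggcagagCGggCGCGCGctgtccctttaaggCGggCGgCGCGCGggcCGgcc
Lef1: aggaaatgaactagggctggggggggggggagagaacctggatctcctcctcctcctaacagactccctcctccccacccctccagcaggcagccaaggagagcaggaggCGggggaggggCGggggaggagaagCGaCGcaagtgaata
Fzd4: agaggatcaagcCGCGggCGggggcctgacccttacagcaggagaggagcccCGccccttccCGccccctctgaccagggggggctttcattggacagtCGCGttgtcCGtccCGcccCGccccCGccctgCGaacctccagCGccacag
Wnt1: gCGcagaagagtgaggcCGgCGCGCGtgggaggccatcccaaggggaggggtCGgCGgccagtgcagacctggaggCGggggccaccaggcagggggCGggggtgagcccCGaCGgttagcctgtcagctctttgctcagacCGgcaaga
Dkk1: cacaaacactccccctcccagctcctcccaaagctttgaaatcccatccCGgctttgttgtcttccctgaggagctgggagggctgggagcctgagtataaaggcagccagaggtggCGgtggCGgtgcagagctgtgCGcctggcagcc

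The positions are Wnt3 chr11:103774025-103774174, plus strand; Fzd10 chr5:128600956-128601105, plus strand; Axin2 chr11:108920199-108920348, plus strand; Lef1 chr3:131110147-131110296, plus strand, the most upstream of its 4 starts in the table; Fzd4 chr7:89404216-89404365, plus strand; Wnt1 chr15:98789707-98789856, plus strand; and Dkk1 chr19:30549497-30549646, minus strand. CpG counts ran from 4 in Lef1 and Dkk1 to 21 in Axin2 and 23 in Fzd10, so genes that shared a direction did not share a CpG content. The RefSeq table held windows of 300 bases, running from upstream to just inside the gene, for 29 of the 47 members, some with several starts (35 windows). Those had a median of 67.3% G and C and 26 CpGs, against 52.7% and 7 for all 32851 windows. On either strand, CTTTGAT, a TCF/LEF motif, was found in the windows of Wnt11 and Wnt5b, and in 3.73% of all windows. Direct repeats of AGGTCA or AGTTCA, a form that retinoic acid receptors bind, were in 0 member windows at spacings of 1, 2 or 5 bases, and in 0.0822%, 0.0396% and 0.0396% of all windows. Repeats built from other sequences were not searched for, so the 0 covers these sequences only. The CTCF core motif was in 0 member windows and 0.557% of all. These counts describe the windows, which leave out Fzd8, Fzd2, Wnt8a and Sfrp1 among others, and no binding was measured.

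The difference between the retinoic acid differences of the lines, Ctcfl line minus wild type, uses the same 4 arrays as the comparisons above and adds no independent values. By this measure 0 members were at least 2-fold higher (1.9% of all genes) and 5 were at least 2-fold lower (10.6% of members, 0.754% of all genes): Wnt8a, Lgr5 (resting in part on a value below background), Wnt5a, Wnt3 and Lef1, at -1.28, -1.24, -1.23, -1.22 and -1.21. Axin2 followed at -0.97. They reached these values by different routes. Wnt5a and Lgr5 were higher with retinoic acid in wild-type P19 (1.62 and 1.79) and less so in the Ctcfl line (0.39 and 0.55). Wnt8a, Wnt3 and Lef1 differed by -0.37, 0.15 and -0.05 in wild-type P19 and by -1.65, -1.07 and -1.26 in the Ctcfl line. Sfrp1 and Fzd8 were the highest members, at 0.98 and 0.88. No test of these differences is possible with 1 array per condition.

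**Figure D4:**
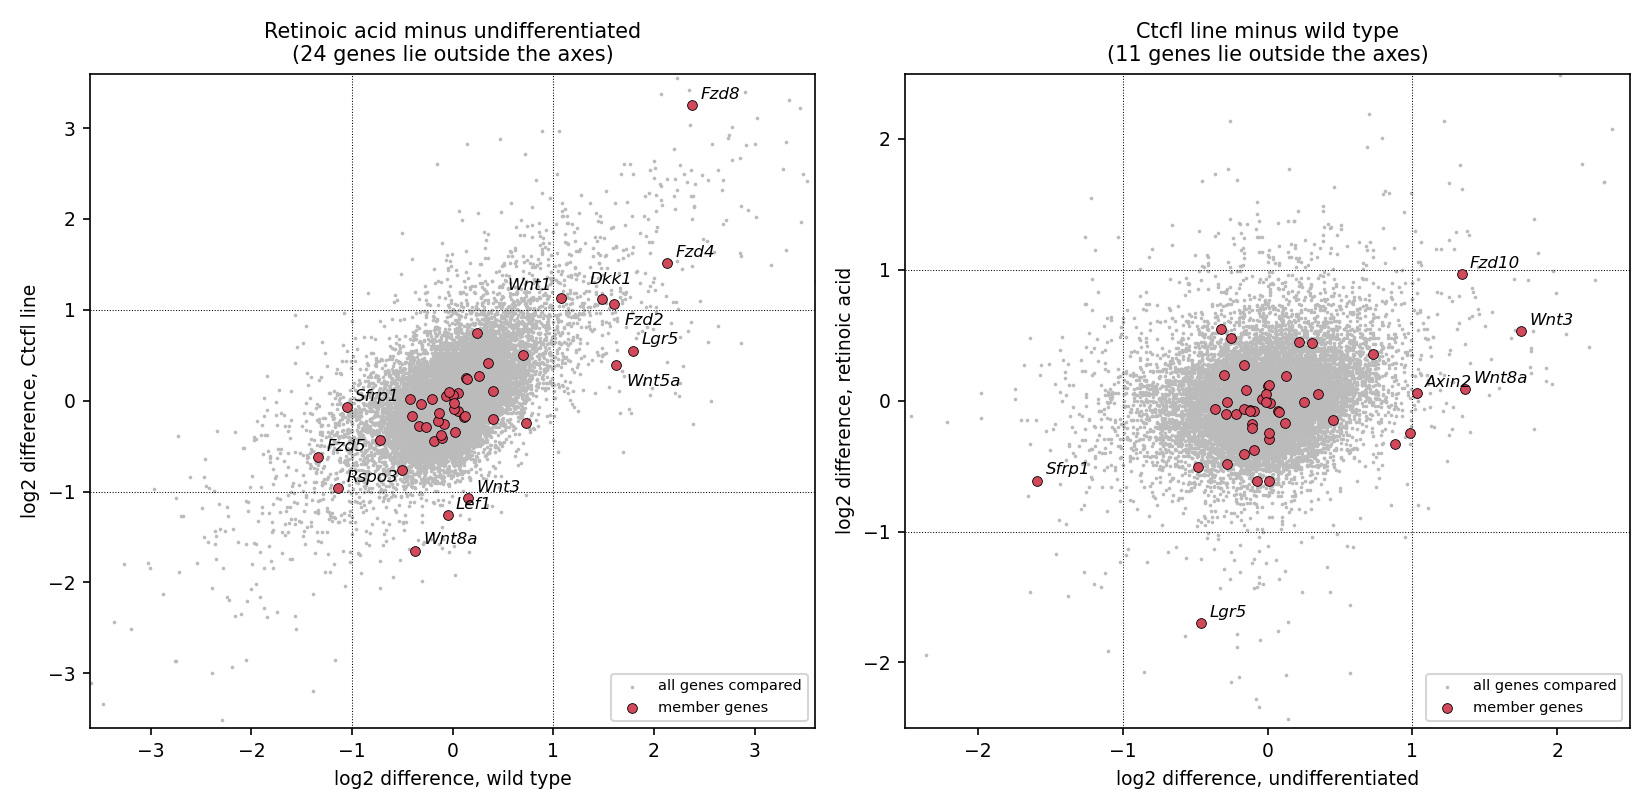
Log2 differences of the members (red) and of all other genes compared (grey): left, retinoic acid minus undifferentiated in the Ctcfl line (vertical axis) against wild-type P19 (horizontal axis); right, Ctcfl line minus wild type with retinoic acid (vertical) against undifferentiated cells (horizontal), with dotted lines at 2-fold. Fzd8, Fzd4, Fzd2, Dkk1 and Wnt1 lie above 1 on both axes at left, and at right Wnt3, Wnt8a, Fzd10 and Axin2 lie above 1 on the horizontal axis only.

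The rest of the pathway was followed in lists of known components. Beside all the limma counts of these lists for retinoic acid stand 4.21% of all genes that rose and 2.44% that fell. In Wnt secretion and processing, 2 of 6 genes rose with retinoic acid and 0 fell. Porcn, the acyltransferase that attaches the Wnt lipid, rose 3.05-fold (8.35 and 10.31 in wild-type P19, 9.47 and 10.72 in the Ctcfl line, limma adjusted p = 0.00833) and was 2.17-fold higher in the untreated Ctcfl line than in untreated wild type. Wls, the carrier that takes lipidated Wnt to the surface, rose 2.54-fold, from 10.48 to 11.71 and from 10.22 to 11.69 (limma adjusted p = 0.00674). Trabd2b, a protease that inactivates Wnts, was high on 1 array, at 7.22, 8.43, 7.28 and 7.21, and did not pass.

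Of 11 other secreted inhibitors and agonists, 3 rose and 0 fell. Draxin, an antagonist of canonical Wnt signalling and axon guidance cue, rose 4.87-fold (7.73 and 9.74 in wild type, 8.15 and 10.71 in the Ctcfl line, limma adjusted p = 0.00187). Igfbp4 and Tpbg, which both can inhibit the canonical pathway, rose 2.53-fold and 2.26-fold (limma adjusted p = 0.00709 and 0.0113). Frzb, a relative of the Sfrp proteins, was at 6.58, 8.48, 7.82 and 8.01 and did not pass (adjusted p = 0.153). Among 15 other receptors and turnover factors 5 rose and 0 fell. Adgra2 and Reck, partners in Wnt7 reception, rose 2.82-fold and 2.24-fold (limma adjusted p = 0.00434 and 0.0187), and Smo, a Frizzled-class protein that transduces Hedgehog signals, rose 1.76-fold (limma adjusted p = 0.0311). Gpc4, a glypican, was 2.31-fold higher in the treated Ctcfl line than in treated wild type.

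Of 15 destruction complex and beta-catenin genes 1 rose, the Dishevelled gene Dvl3 (1.65-fold, limma adjusted p = 0.0426), and 0 fell. Ctnnb1, the beta-catenin gene, which falls outside the rule for named genes and is added for its role, was at 12.38, 12.58, 12.32 and 12.56. Of 13 nuclear partners, Pygo1, a co-activator, rose 1.89-fold (limma adjusted p = 0.0315), and Tcf7l1, a TCF factor that mainly represses, fell 1.72-fold, from 11.02 to 10.16 and from 10.87 to 10.17 (limma adjusted p = 0.033). Of 13 planar cell polarity genes 1 rose, Dact2, by 2.41-fold (limma adjusted p = 0.00719), and 0 fell. Dact3, of the same family, had a retinoic acid difference 1.13 higher in the Ctcfl line than in wild type. None of these lists had a gene that passed for the line. At an unadjusted p under 0.05 limma held 15 of 47 members for retinoic acid, beside 4296 of 18310 genes.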

How the data were processed

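The authors hybridised biotin-labelled cRNA from 4 P19 samples and deposited 1 table of log2 signal for 41345 probe sets, summarised and normalised by RMA in Affymetrix Expression Console, per the labels' protocols. Transcriptome Analysis Console is also named in the submitters' processing notes. The genome build of the array annotation was not given in the sources used here. Of the probe sets, 23521 carried 1 gene symbol in the platform annotation, 1814 several and 16010 were not listed; those with 1 symbol were used. A gene took the probe set with the highest mean signal. Genes reaching log2 6 on any array (18310) were fitted in limma 3.58.1 (R 4.3.3; lmFit and eBayes, retinoic acid and line as additive terms, two-sided, prior degrees of freedom 5.49), with Benjamini-Hochberg adjustment over all of them and a threshold of 0.05. Differences between single arrays were counted at 2-fold, without a test. Nothing says whether the arrays came from separate cultures, and the number of arrays limits the precision.

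Members with a 2-fold difference or a limma call are given array by array, as are up to 4 such genes of each other list. The members and lists were chosen with earlier results of these data known. Alternatives were a filter at log2 7 or none, quantile normalisation, a trended prior, the mean of probe sets and a 3-fold threshold. Promoters came from RefSeq.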

Additional observations from a re-analysis of the deposited data

Results flagged for a closer look

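Between the lines (Ctcfl line minus wild type), 3 members lay on opposite sides of 0 without and with retinoic acid, each time by more than the spread between probe sets of a gene. The log2 differences were 0.88 and -0.33 for Lef1, 0.98 and -0.25 for Wnt5a, and -0.32 and 0.55 for Fzd8. Each value is 1 array minus another, and the change of sign was not tested.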

How the results depend on the processing

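With no filter on low signal, 1 member fell with retinoic acid in limma in place of 2, Fzd5 being lost. At a 3-fold threshold, 0 members were lower with treatment in wild-type P19, 1 (Fzd8) was higher and 1 (Wnt8a) lower in the Ctcfl line, 1 (Wnt3) was higher between the untreated lines, and 0 were lower in the difference of the retinoic acid differences. Averaging the probe sets of a gene moved 5 values: Axin2 between untreated lines to 0.67, and Lgr5 to 0.87 and 0.18 with retinoic acid in wild type and the Ctcfl line, -1.004 between treated lines and -0.69 in the difference of responses. Lgr5 passed limma for retinoic acid after quantile normalisation (adjusted p = 0.0414) and with a trended prior (0.0498). Of 150 single-array differences of named members recomputed with quantile normalisation or averaged probe sets, 5 changed sign, each of them at most 0.085 in size as reported, and 7 moved across 2-fold. Under quantile normalisation those were Dkk1 (1.115 to 0.995) and Rspo3 (-0.956 to -1.053) with retinoic acid in the Ctcfl line, Wnt5a between untreated lines (0.98 to 1.02) and Axin2 in the difference of responses (-0.97 to -1.006). No paired analysis was possible because each condition has 1 array and the labels give no replicate numbers. Each line and treatment rests on 1 array, so variation between cultures was not measured, and members near background (Rspo4, Sfrp4, Sfrp5, Wnt16, Wnt8b) could have moved without being seen.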
